A study of Mus musculus with 7 samples.

Results

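The axon guidance genes described here are 66 of the 20661 protein-coding genes on mouse chromosomes 1 to 19. They were chosen by symbol, with no measured value in the rule, though earlier results of these data were known at the time. The choice took every semaphorin (Sema, 20 genes), plexin (Plxn, 7), ephrin (Efna and Efnb, 7), Eph receptor (Epha and Ephb, 14), Slit (3), Robo (4) and netrin gene (Ntn with a digit, 4). Neuropilins Nrp1 and Nrp2 were added, as were Dcc and the netrin receptors Unc5a, Unc5b, Unc5c and Unc5d (5 genes together). Unc50 and Unc5cl, which share the letters but are no netrin receptors, were left out.

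Binding of Fos was mapped by chromatin immunoprecipitation and sequencing in the hippocampus of C57BL/6J wild-type mice aged 2 months. One group of 3 libraries came from animals given saline (PBS). The other 3 libraries came from animals given kainic acid, a glutamate receptor agonist, in 2 intraperitoneal injections of 10 mg/kg spaced by 30 min, and killed 1 hour after the first injection with seizures of level 4. The number of animals behind a library is not given in the labels, and a whole hippocampus mixes neurons with glia and vessel cells, so a peak cannot be assigned to a cell type.

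Axon guidance molecules are cues and receptors that steer growing axons and, in the adult brain, take part in the shaping of spines and synapses. Semaphorins act through plexins, with neuropilins as coreceptors for most secreted class 3 semaphorins. Ephrins bind Eph receptor tyrosine kinases on neighbouring cells, Slits bind Robo receptors, and netrins bind Dcc and the Unc5 receptors. Fos is an immediate early transcription factor that pairs with Jun proteins to form AP-1, which binds the sequence TGANTCA.

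The data are 1 peak list per library. The kainic acid lists held 15009, 63197 and 29650 peaks (replicates 1, 2 and 3) and the saline lists 7, 3277 and 2, so a count near a gene moves with the length of its list. No read totals come with the lists, and the depth behind a single count is unknown. Saline replicates 1 and 3 had 4 and 0 peaks on chromosomes 1 to 19 and could show little near any gene. Nearly all saline values therefore rest on replicate 2. Regions within 10 kb lay at all 8 neuronal marker genes checked, where genes of their length gave 4.95. They lay at 3 of 6 for astrocytes, oligodendrocytes and endothelium each (2.81, 2.46 and 3.24 from length), at 2 of 6 for microglia (2.22) and at 3 of 8 liver genes (2.82). These numbers of genes were close to those that length gave, but the numbers of peaks were not all so. Peaks over those expected from length came to 2.52 ± 0.165 for neurons and 0.922 ± 0.164 for astrocytes (SD, n = 3 lists). The ratio was 1.97 ± 1.14 for oligodendrocytes, 0.404 ± 0.0486 for endothelium, 0.644 ± 0.224 for microglia and 0.627 ± 0.305 for liver. Peak lists hold no expression values, so this is the only check of the labelled tissue that they allow.

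Most Fos peaks of these genes lay away from their start sites, and the 250 bases before 6 start sites are shown for the promoters that a peak or an AP-1 motif singled out. RefSeq (GRCm38.p6) gave start sites for 56 of the 66 genes, 72 promoters in all. No entry was found for Plxna4, Sema3b, Dcc, Sema3f, Plxna1, Slit1, Sema6a, Efnb3, Unc5d and Ntn1. Robo2 (chr16:74411826-74412075, minus strand), Ephb2 (chr4:136836013-136836262, minus) and Epha5 (chr5:84417383-84417632, minus) are shown because a region found in 2 kainic acid lists touched the promoter. The inner start of Sema6b (chr17:56133853-56134102, minus) holds an AP-1 motif and had a peak of kainic acid replicate 2 alone. Sema4c (chr1:36558382-36558631, minus) and Epha2 (chr4:141300971-141301220, plus) hold motifs but had no peak there. Letters run 5′ to 3′ and end at the base before the start site. Capitals mark TGANTCA, or in Epha2 the related motif TGACGTCA. Each motif is its own reverse complement, and the pair cannot overlap on the same letters.
Robo2: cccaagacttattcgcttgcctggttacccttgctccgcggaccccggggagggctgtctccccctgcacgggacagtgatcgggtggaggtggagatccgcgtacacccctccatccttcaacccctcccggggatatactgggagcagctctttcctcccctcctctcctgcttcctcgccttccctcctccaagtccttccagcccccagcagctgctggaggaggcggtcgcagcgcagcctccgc
Ephb2: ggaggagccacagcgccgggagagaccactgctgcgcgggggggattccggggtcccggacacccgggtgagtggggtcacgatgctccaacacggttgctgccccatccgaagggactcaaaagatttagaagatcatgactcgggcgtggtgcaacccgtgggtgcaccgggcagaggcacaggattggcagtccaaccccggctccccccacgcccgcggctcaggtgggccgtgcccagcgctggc
Epha5: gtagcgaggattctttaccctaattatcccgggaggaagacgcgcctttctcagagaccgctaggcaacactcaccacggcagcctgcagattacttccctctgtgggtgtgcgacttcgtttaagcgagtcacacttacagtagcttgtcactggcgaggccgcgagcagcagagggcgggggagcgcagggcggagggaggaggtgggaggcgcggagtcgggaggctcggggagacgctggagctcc
Sema6b, inner start: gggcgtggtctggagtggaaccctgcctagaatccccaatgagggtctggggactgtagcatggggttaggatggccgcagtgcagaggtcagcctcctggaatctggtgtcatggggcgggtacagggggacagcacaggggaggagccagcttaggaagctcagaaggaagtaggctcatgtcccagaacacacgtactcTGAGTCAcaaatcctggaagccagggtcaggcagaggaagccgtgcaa
Sema4c: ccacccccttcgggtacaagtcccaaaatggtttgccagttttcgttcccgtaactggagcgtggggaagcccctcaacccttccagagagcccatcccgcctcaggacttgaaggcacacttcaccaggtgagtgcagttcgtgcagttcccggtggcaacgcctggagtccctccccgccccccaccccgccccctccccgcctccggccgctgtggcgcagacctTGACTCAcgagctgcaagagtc
Epha2: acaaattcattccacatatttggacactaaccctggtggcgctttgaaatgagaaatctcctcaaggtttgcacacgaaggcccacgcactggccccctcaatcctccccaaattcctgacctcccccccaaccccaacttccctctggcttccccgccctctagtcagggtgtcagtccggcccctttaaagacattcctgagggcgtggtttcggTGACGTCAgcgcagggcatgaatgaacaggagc

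In these sequences the first base of the motif lay at -48 from the start site in Sema6b (TGAGTCA), at -22 in Sema4c (TGACTCA) and at -33 in Epha2. Sema4d also held TGANTCA, at -239. Thus 3 of the 72 promoters (4.17%) held TGANTCA, against 6.19% of the 20012 promoters of all other genes, and 1 (1.39%) held TGACGTCA, against 1.98%. A promoter counted as touched if a peak or region reached the 250 bases before the start site or the 50 bases from it on. None of the 4 promoters touched by a kainic acid region held either motif. Of such promoters of other genes 17.4% held TGANTCA, and 4 are too few to compare with that share. The fourth was Unc5a, where the region began 7 bp past the start site. A motif match is a description of letters, not a binding site. Kainic acid regions touched 4 of the 72 promoters (5.56%), against 5.38% for other genes. By list, peaks touched 0, 17 and 4 of them after kainic acid (0%, 23.6% and 5.56%, for replicates 1, 2 and 3), against 1.22%, 13.1% and 3.83% of the promoters of other genes. Promoters of guidance genes were thus touched about as often as others or, in replicate 2, more often. The authors' fold is the enrichment of a peak over background in its own library. For replicates 2 and 3 after kainic acid it came to 5.46 and 3.64 at Epha5, 5.85 and 3.15 at Ephb2, and 6.26 and 2.91 at Robo2, where the medians of all peaks were 4.397 and 3.973. These 3 promoter peaks were above the median in replicate 2 and below it in replicate 3. At Unc5a replicate 2 alone touched the promoter (7.34).

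As a group, guidance genes had Fos peaks about as often as other genes of their length. Peaks of all 6 lists that overlapped by 1 bp or more were merged, and a merged stretch found in 2 or 3 kainic acid lists is called a kainic acid region. Within 10 kb of a gene's span, 46 of the 66 members (69.7%) had such a region, against a background of 41.8% of all protein-coding genes. Guidance genes are long, however, with a median span of 64.9 kb against 17.4 kb. Genes were therefore sorted into classes of gene span, each covering 0.5 log2 units, and each member was set beside all other genes of its class. The longest genes were pooled into 1 wider class, from 1055 to 2271 kb, which held Robo2 and Dcc. From those classes 41.4 members would have a region, and the expected number of regions was 234 where 231 were found. Ranked by length, members showed more regions with a longer span (Spearman rank correlation 0.64 over 66 genes, 0.44 over the other 20595), a description over genes that share the same libraries.

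**Figure D1:**
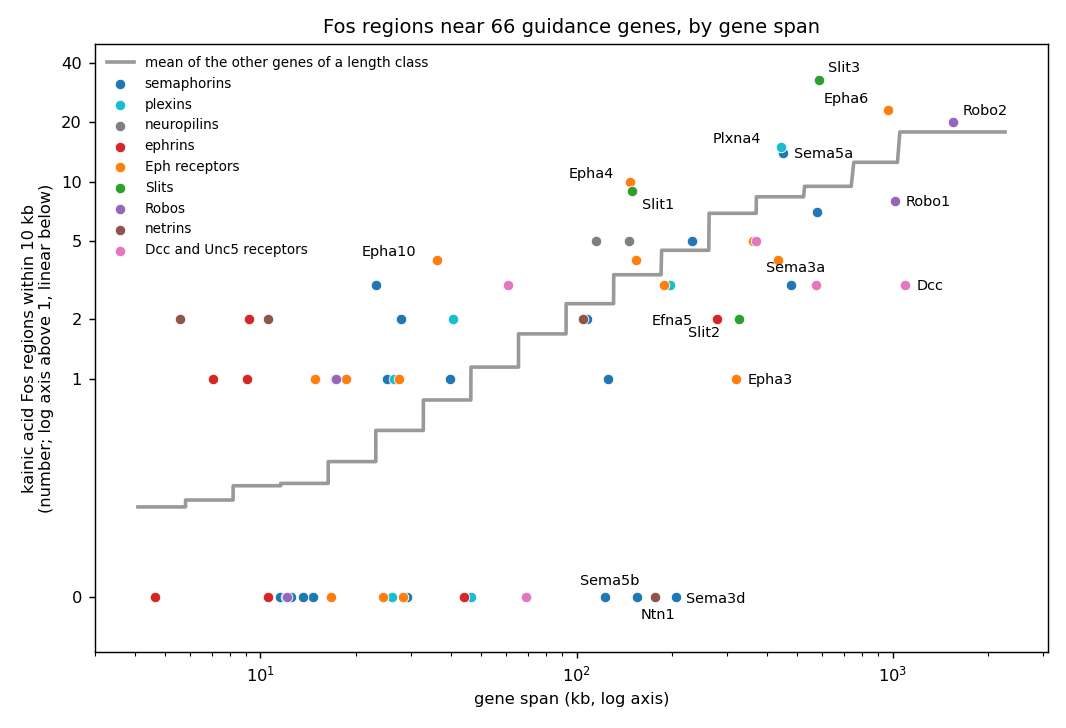
Number of kainic acid Fos regions within 10 kb of each of the 66 guidance genes (vertical, log above 1) against gene span in kb (log axis), coloured by family, with the mean of all other genes of a length class as a grey line. Slit3 with 33 regions stands above the line, and Dcc with 3 stands below it.

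Regions were unevenly spread among the members. The 10 genes with the most regions held 144 of the 231 (62.3%), 20 genes had none, 21 had 1 or 2, 16 had 3 to 5 and 9 had more than 5. Of the 32 members of 100 kb or longer, 28 had a region (87.5%, background 83.7%), and of the 34 shorter ones 18 had (52.9%, background 36.5%). A region in all 3 kainic acid lists lay near 33 members (50.0%), against 25% of all genes, a comparison that takes no account of the longer spans of members. Without kainic acid replicate 2 the number of regions was 100 and without replicate 3 it was 116, since then both remaining lists had to hold a peak. For 38 of the 46 members with a region, leaving out 1 kainic acid list lowered the number by over 1.5 times, and 13 had none without replicate 2, as did 13 without replicate 3. The other 8 were Plxna2, Plxnb2, Unc5a, Dcc, Epha3, Epha8, Ephb2 and Robo3.

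Kainic acid and saline lists were compared gene by gene. For 30 of the 66 members every kainic acid list had more peaks within 10 kb than any saline list, 45.5% of members against a background of 21.6%. The reverse was found for 0 members, and for 0 of all genes. Among members of 100 kb or longer the groups did not overlap for 24 of 32 (75.0%, background 64.5%), and among shorter ones for 6 of 34 (17.6%, background 16.2%). Each of the 30 had p = 0.1 in a two-sided exact permutation test, the smallest value that 3 lists against 3 allow, so no gene could pass 0.05. A count near a gene also carries the difference in length between the lists. Peaks near members made up 0.880%, 0.925% and 0.962% of all peaks on chromosomes 1 to 19 in kainic acid replicates 1, 2 and 3 and 0.829% in saline replicate 2, so their share was similar in all 4 long lists.

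To remove the length of a list, the number of peaks near each family was divided by the number expected from all other genes of the same length classes in that list. For all members together this ratio was 0.949, 1.09 and 1.08 in kainic acid replicates 1, 2 and 3, a mean of 1.04 ± 0.0771 (SD, n = 3), within 1 SD of 1. It was 1.07 ± 0.157 for the 34 ligands and 1.01 ± 0.0383 for the 32 receptors (SD, n = 3 lists each), a difference smaller than the spread between lists. Slit3 alone held 15 of the 46, 88 of the 255 and 40 of the 111 ligand peaks in kainic acid replicates 1, 2 and 3. The ligand value thus leans on this gene. The comparison of ligands and receptors also depends on the threshold. With only peaks of −log10 q of at least 10 the ligands had 1.08 ± 0.0920 and the receptors 0.688 ± 0.128, a gap beyond the spread between lists. At that threshold the Slits had 2.24 ± 0.173. The other ligand families had means below 1, with 0.832 ± 0.198 for semaphorins, 0.674 ± 0.595 for ephrins and 0.355 ± 0.615 for netrins. The ligand value of 1.08 therefore rests on the Slits and does not describe ligands in general. The families differed more than ligands and receptors did. Slits (2.21 ± 0.381), neuropilins (2.19 ± 0.819), plexins (1.42 ± 0.193) and Eph receptors (1.28 ± 0.0748) lay above 1 in each list. Semaphorins (0.796 ± 0.0736), Robos (0.827 ± 0.173), ephrins (0.635 ± 0.284), netrins (0.546 ± 0.267) and the Dcc and Unc5 receptors (0.401 ± 0.0510) lay below 1 in each list. These are ratios without a test, since genes of a family are not replicates.

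**Figure D2:**
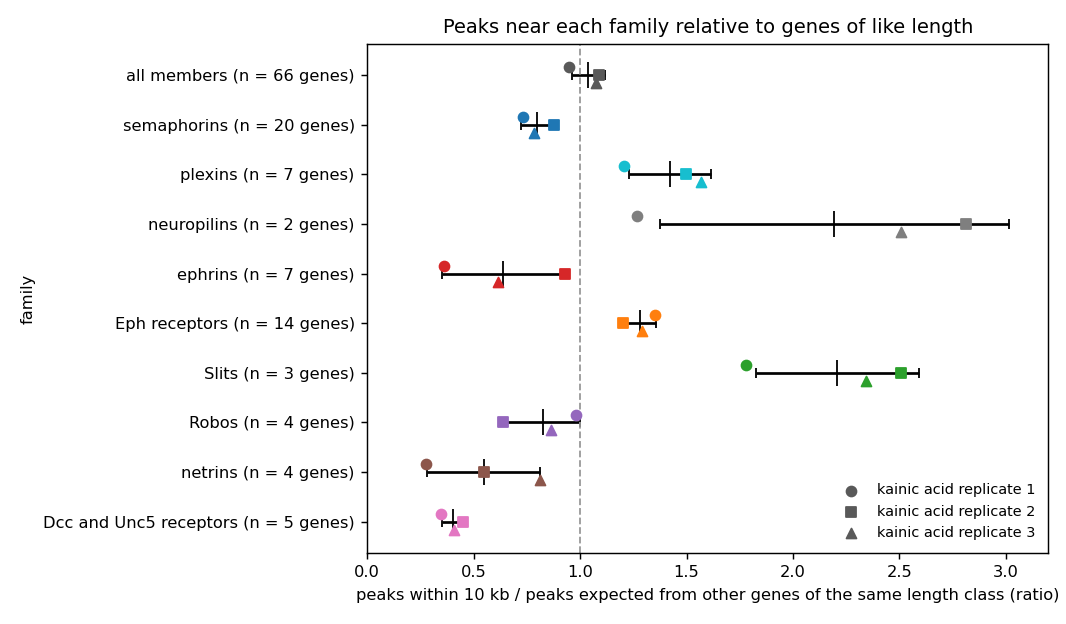
Peaks within 10 kb of each family divided by the number expected from other genes of the same length classes (horizontal, ratio), for kainic acid replicates 1, 2 and 3 (symbols) with the mean and SD over the 3 lists (bars). Slits sit between 1.78 and 2.51 and the Dcc and Unc5 receptors between 0.347 and 0.449, on opposite sides of the dashed line at 1.

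Single genes carried several of these family values. The ratio of Slits fell to 1.06 without Slit3, that of Eph receptors to 1.05 without Epha6, that of plexins to 1.04 without Plxna4 and that of semaphorins to 0.597 without Sema5a. The mean ratio of netrins was 1.04 without Ntn1, with a wide spread between lists. That of ephrins rose to 1.32 without Efna5, while that of Robos was 0.631 without Robo2. Without Dcc the ratio of the netrin receptors was 0.577, and without Slit3 that of all members was 0.935. By gene, 15 of the 66 members had more peaks than expected in each of the 3 kainic acid lists and 26 had fewer in each (22.7% and 39.4%, against 16.2% and 54.0% of other genes). For members of 100 kb or longer these were 9 (28.1%) and 16 (50.0%) of 32, and for other genes of that length 26.7% and 49.6%, so the spread among long guidance genes was like that among other long genes. Of the 34 shorter members, 6 (17.6%) had more and 10 (29.4%) fewer in each list, against 14.9% and 54.5% of other short genes.

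Slit3, a secreted ligand of Robo receptors (chr11:35121456-35708507), had the most regions of all members. It had 15, 88 and 40 peaks in kainic acid replicates 1, 2 and 3 and 0, 1 and 0 in saline replicates 1, 2 and 3. Every kainic acid list lay above every saline list (exact permutation p = 0.1). Its 33 regions compare with a class mean of 9.47 and a class median of 6, and 5 of the 90 other genes in its class had as many or more. All 33 lay inside the gene span and 13 were in all 3 lists. The strongest, chr11:35419190-35420116, reached folds of 7.57, 15.3 and 8.35, and 10 regions fell within 100 kb between 35238033 and 35332213. Without kainic acid replicate 2 the gene had 13 regions and without replicate 3 it had 15. The peak-to-expected ratio of Slit3 was 2.49, 4.04 and 3.74 in the 3 lists.

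The other Slits differed from each other. Slit1 (chr19:41597824-41747275) had 4, 20 and 10 kainic acid peaks and 0, 2 and 0 saline peaks, with no overlap of the groups. It had 9 regions against a class mean of 3.37, and the second strongest region of the whole set lay inside it (chr19:41696863-41697960, fold 12.2, 18.9 and 8.14). Without kainic acid replicates 2 and 3 it had 4 and 3 regions. Slit2 had 2, 6 and 2 kainic acid peaks, no saline peak and 2 regions where its class had a mean of 6.91 (1 without kainic acid replicate 1, and 1 without replicate 2). Slit1 and Slit2 thus lay on opposite sides of their expectation in each list, with ratios of 2.48 ± 0.239 and 0.379 ± 0.124 (SD, n = 3).

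Among the Robo receptors, Robo2 (chr16:73891976-75447443) had 13, 28 and 21 kainic acid peaks and none in saline. Its 20 regions were close to the class mean of 17.9, 6 were in all 3 lists, and the number was 7 and 11 without kainic acid replicates 2 and 3. Robo1 had 6, 10 and 9 kainic acid peaks, none in saline, and 8 regions against 12.5 (4 and 5 without those replicates). Robo3 had 1, 2 and 1 kainic acid peaks and a single region, and Robo4, the endothelial member, had 2 peaks of replicate 2 alone and no region. The 29 regions near Robos were low in rank. With folds ranked within each list, 0 percent being the top, their median mean percentile was 56.4, against 42.2 for all regions on chromosomes 1 to 19. None of the 29 was within the first 10 percent, where 7.75% of all regions lay.

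**Figure D3:**
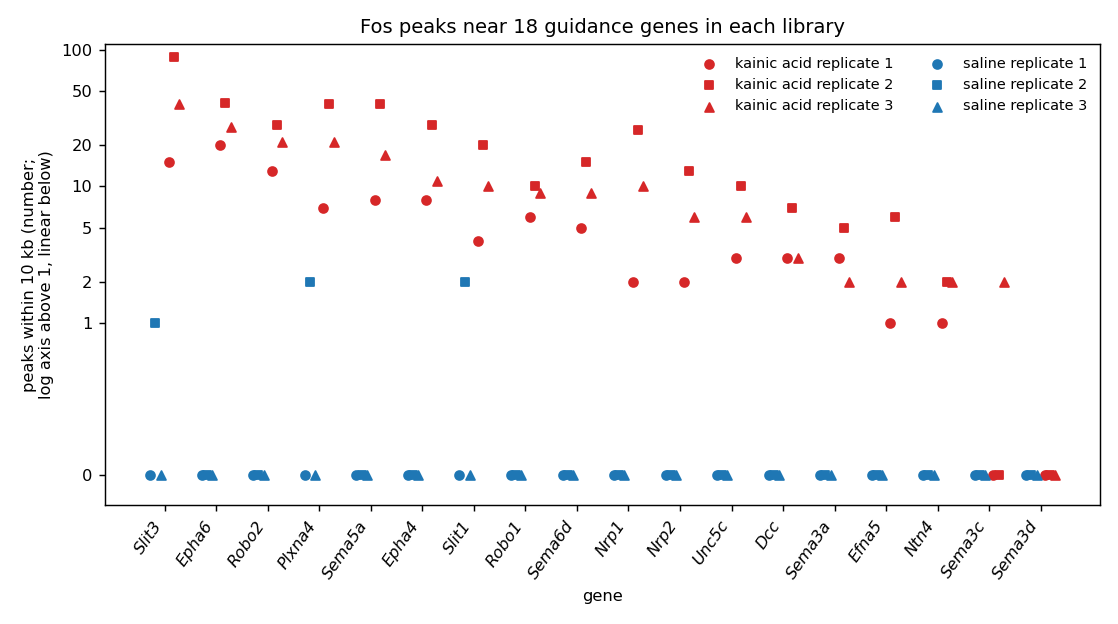
Number of peaks within 10 kb of 18 guidance genes (vertical, log above 1) in each kainic acid (red) and saline (blue) library, 1 symbol per replicate. Sema3c has peaks in kainic acid replicate 3 alone, and Sema3d is at 0 in all 6 libraries.

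Eph receptors held the largest number of regions of any family, 57 for 14 genes, of which 26 were in all 3 lists. Epha6 (chr16:59641433-60610911) had 20, 41 and 27 peaks in the kainic acid lists and none in saline. It had 23 regions, all inside the span, against a class mean of 12.5, and 7 of 54 other genes in the class had as many or more. Without kainic acid replicates 2 and 3 the number was 13 and 15. Epha4 (chr1:77367182-77515107), an Eph receptor that binds ephrins of both classes, had 8, 28 and 11 kainic acid peaks and no saline peak. Its 10 regions, against a class mean of 3.37, lay within 100 kb of each other, from 77419734 to 77506635, and 37 of 593 genes in the class had as many or more. Without kainic acid replicates 2 and 3 Epha4 had 4 and 6 regions.

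The highest single fold near a guidance gene was at Epha5, a receptor for ephrin-A ligands. This region, chr5:84396662-84397978, lay inside the gene 19.4 kb from the start site shown above, with folds of 16.1 (replicate 1 after kainic acid), 25.4 (replicate 2) and 12.9 (replicate 3). Its mean percentile was 0.239 and it had no saline peak. The gene as a whole had 4, 9 and 6 kainic acid peaks, none in saline, and 5 regions, fewer than the class mean of 6.91 (3 without kainic acid replicate 2, and 3 without replicate 3). Epha3 had 1, 5 and 2 kainic acid peaks, no saline peak and 1 region against 6.91. That region (chr16:63793091-63794403) ranked at a mean percentile of 5.03 with folds of 8.16, 9.45 and 8.34. Number and strength of regions thus did not go together in these 2 genes.

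EphA and EphB receptors differed. The ratio of peaks to expected was 1.57 ± 0.191 for the 9 EphA genes and 0.575 ± 0.231 for the 5 EphB genes (SD, n = 3 lists), and EphA lay above EphB in each list. Of the EphA genes, Epha7 had 3, 13 and 12 kainic acid peaks and 1 peak of saline replicate 2, and Epha10 had 0, 12 and 4 with none in saline. Of the EphB genes, Ephb1 had 1, 11 and 5 kainic acid peaks, none in saline, and 4 regions against a class mean of 8.38 (0 without kainic acid replicate 2 and 1 without replicate 3). Ephb2, a receptor for ephrin-B at synapses, had 2, 14 and 3 kainic acid peaks and 2 in saline replicate 2, so its groups overlapped. Epha1, Epha8 and Ephb3 had 1 region each. Epha2, Ephb4 and Ephb6 had no region, and the latter 2 had no peak in any of the 6 lists.

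Near the ephrins, the ligands of these receptors, there were 6 regions in all. Efna5 (chr17:62602957-62881317), the longest of them, had 1, 6 and 2 kainic acid peaks and none in saline, with 2 regions against a class mean of 6.91 (1 without replicate 2, and 1 without replicate 3). Efna1 had 1, 4 and 2 kainic acid peaks, none in saline and 2 regions in a span of 9.22 kb, where its class had a mean of 0.510 (1 without each of the same lists). These were the ephrins whose groups did not overlap. Efna3 had 0, 3 and 2 kainic acid peaks and 1 region. Efnb3 had 0, 2 and 1 kainic acid peaks and 2 peaks of saline replicate 2, and its single region was the only one of the 231 with a saline peak. That region overlapped Dnah2. Efna2, Efna4 and Efnb2 had no region, although Efnb2 had 5 peaks of kainic acid replicate 2. Efna2 had 2 such peaks and 2 of saline replicate 2. With a reach of 50 kb the ephrin ratio went from 0.635 to 1.61, so this family's value depends on how far a gene is taken to reach.

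Semaphorins had 40 regions near 11 of their 20 genes. The count was led by Sema5a (chr15:32244813-32696341), a transmembrane semaphorin, with 8, 40 and 17 kainic acid peaks and none in saline. All 14 regions lay inside the gene, 7 of them in all 3 lists, against a class mean of 8.38. Without kainic acid replicates 2 and 3 it had 7 and 8. Its near relative Sema5b, with a span of 123.1 kb, had no peak in any of the 6 lists, and 231 of the 889 other genes of its class had no region. Sema6d had 5, 15 and 9 kainic acid peaks, none in saline and 7 regions against 9.47 (4 without kainic acid replicate 2). Its strongest region (chr2:124509180-124510482) had folds of 6.11, 18.1 and 10.2. Sema7a, the membrane-anchored semaphorin that binds Plxnc1, had 1, 9 and 3 kainic acid peaks and none in saline, with 3 regions in a span of 23.3 kb (1 without replicate 2, and 1 without replicate 3).

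The secreted class 3 semaphorins had few peaks for their length. Their ratio was 0.337 ± 0.0778 (SD, n = 3 lists), against 1.12 ± 0.286 for class 4 and 1.13 ± 0.165 for classes 5, 6 and 7, and it lay below both in each list. Regions lay near 2 of the 7 genes. Sema3e had 2, 5 and 5 kainic acid peaks and 5 regions (2 without replicate 2, and 2 without replicate 3). Sema3a (chr5:13124822-13603485), a repellent that signals through Nrp1, had 3, 5 and 2 and 3 regions against 8.38, but 1 without kainic acid replicate 1 and 1 without replicate 2. Neither gene had a saline peak. One of the Sema3a regions, chr5:13477227-13478409, had folds of 7.36, 13.9 and 8.96. Sema3d (206 kb) had no peak in any list, where 55 of the 388 other genes of its class had no region, and Sema3c had 0, 0 and 2. Sema3b, Sema3f and Sema3g had 1 peak of kainic acid replicate 2 each and no region.

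The transmembrane semaphorins of class 4, and Sema6a, Sema6b and Sema6c, had at most 2 regions each. Sema4f had 1, 4 and 2 kainic acid peaks, no saline peak and 2 regions. One of these was the third strongest of the whole set (chr6:82907952-82909734, fold 7.47, 20.6 and 12.8), 2150 bp past the downstream end of the gene. Sema4d had 1, 13 and 2 kainic acid peaks and 1 of saline replicate 2. Sema6b had 0, 5 and 1 kainic acid peaks and 3 of saline replicate 2, the most saline peaks of any member. Sema6a had 0, 5 and 1, and Sema4a and Sema4b had 0, 2 and 1 and 0, 1 and 1, each with 1 saline peak. Sema4c, Sema4g and Sema6c had no region.

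Plexins, the semaphorin receptors, had 25 regions near 5 of 7 genes. Plxna4 (chr6:32144543-32588192) had 7, 40 and 21 kainic acid peaks and 2 of saline replicate 2, with no overlap of the groups. It had 15 regions against a class mean of 8.38, 7 of them between 32330242 and 32416443, and 6 and 7 without kainic acid replicates 2 and 3. Plxna2 had 3, 12 and 4 kainic acid peaks and none in saline. Plxnc1 had 2, 6 and 5 with 1 saline peak at its start site, and Plxnb2 had 1, 4 and 2 with 2 saline peaks. Plxnd1 had 0, 2 and 2 with 1 saline peak. Plxna1 and Plxnb1 had no region.

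Both neuropilins had more peaks than expected in each list. Nrp1 (chr8:128358591-128505476), the coreceptor of Sema3a, had 2, 26 and 10 kainic acid peaks, and Nrp2 (chr1:62703317-62818692), the coreceptor of Sema3f, had 2, 13 and 6. Neither had a saline peak, so the groups did not overlap. Each had 5 regions, against class means of 3.37 and 2.40, and each had 2 without kainic acid replicate 2 and 2 without replicate 3. Their combined ratio was 1.26, 2.81 and 2.51 in the 3 lists, the widest spread of any family. The strongest region at Nrp2 lay 6810 bp past the downstream end of the gene (chr1:62825502-62826893, fold 5.52, 16.5 and 10.7). With only peaks of −log10 q of at least 10 the neuropilin ratio was 0.804, below 1.

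Netrins and their receptors had fewer peaks than expected. Without Ntn1 the mean ratio of the netrins was 1.04 ± 0.544 (SD, n = 3 lists). That spread is too wide to place the remaining netrins above or below 1. Ntn1 (177 kb), a secreted cue for commissural axons, had 0, 1 and 0 kainic acid peaks and no region, where 115 of the 593 other genes of its class had none. Ntn4 had 1, 2 and 2 kainic acid peaks and 2 regions against 2.40 (1 without replicate 2, and 1 without replicate 3). Ntn3 and Ntn5, both short, had 0, 3 and 2 each and 2 regions against 0.414 and 0.510 (0 without replicate 2, and 0 without replicate 3), and both Ntn5 regions lay in part over other genes, Sec1 and Car11. None of the 4 netrins had a saline peak.

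Dcc (chr18:71253613-72351228), the attractive netrin receptor, had 3, 7 and 3 kainic acid peaks and none in saline. Its groups did not overlap, but the 3 regions in a span of 1098 kb compare with a class mean of 17.9 and a median of 12. In its class 8 of the 47 other genes had as few or fewer. Dcc lay near the short end of this pooled class (1055 to 2271 kb), and the next shorter class had a mean of 12.5. The peak-to-expected ratio of Dcc was 0.260, 0.197 and 0.148 in the 3 lists. Of the Unc5 receptors, Unc5c had 3, 10 and 6 kainic acid peaks and 5 regions against 6.91 (3 without replicate 2, and 3 without replicate 3). Unc5d had 0, 7 and 5 and 3 regions against 9.47, with 0 left without replicate 2 and 0 without replicate 3. Unc5a, with a span of 60.9 kb, had 2, 8 and 3 kainic acid peaks and 1 saline peak. It was the netrin receptor with more peaks than expected in each list (ratio 2.80 ± 0.470, SD, n = 3). Unc5b had 4 peaks of kainic acid replicate 2, 1 of saline replicate 2 and no region.

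**Figure D4:**
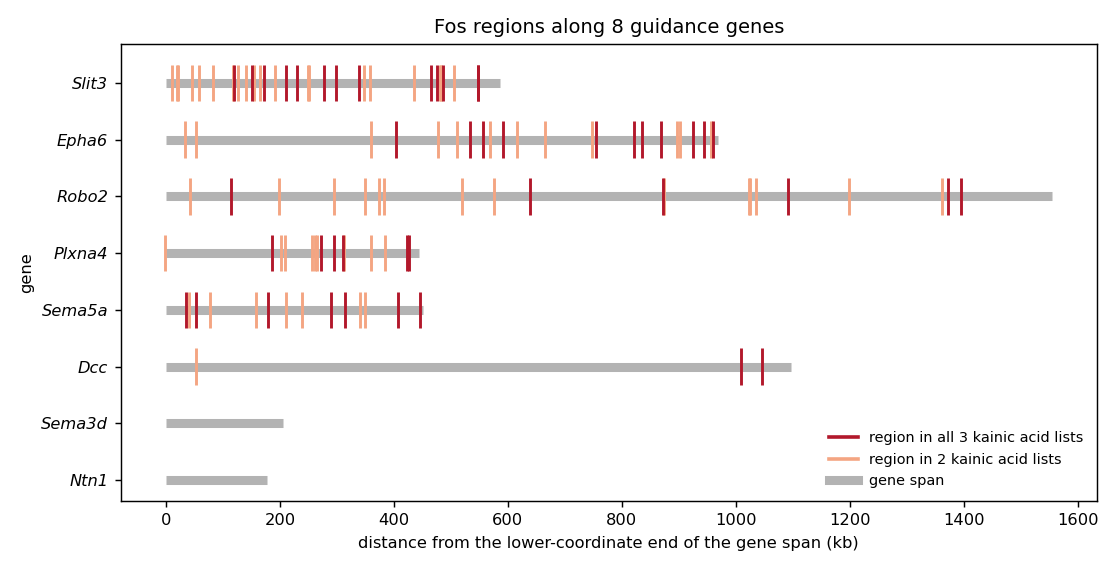
Kainic acid Fos regions (ticks, dark for all 3 lists and light for 2) along 8 guidance genes drawn to 1 scale, by distance in kb from the lower-coordinate end of the gene span. Slit3 carries 33 regions over 587 kb and Dcc 3 over 1098 kb, while Sema3d and Ntn1 carry none.

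Nearly all regions lay inside the genes. Of the 231 regions, 217 (93.9%) touched the span of a member, 14 lay in its 10 kb flanks, and 6 also touched another protein-coding gene. With regions within 1 kb of a start counted apart, 95.9% lay inside for members of 100 kb or longer, against 90.4% for other genes of that length. For the 56 genes with a known start site, 3.39% ± 3.44 of kainic acid peaks (SD, n = 3 lists) lay within 1 kb of a start, against 11.4% ± 2.97 for other genes. The difference is smaller among genes of 100 kb or longer, where the shares were 2.11% ± 2.22 and 4.39% ± 1.47. Start-site peaks numbered 0, 34 and 8 in kainic acid replicates 1, 2 and 3, so most came from replicate 2. The regions near members were in all 3 lists in 41.1% of cases, against 44.5% of all regions on chromosomes 1 to 19. Their median mean percentile was 47.0 against 42.2, with 0 percent as the top. In the first 10 percent lay 6.49% of them, against 7.75% of all regions, so they ranked slightly below all regions.

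Peaks of saline replicate 2 lay near 19 of the 66 members (28.8%), against a background of 17.9% of all genes. There were 27 such peaks where the length classes gave 17.1, a ratio of 1.58 in this single list, with 7 peaks near plexins (expected 1.81) and 3 near Slits (0.802). Their folds ran from 3.70 to 6.07, and none came from saline replicates 1 and 3. Of the 19 peaks at genes with a known start site, 8 (42.1%, 95% Clopper-Pearson interval 20.3 to 66.5, counting error only) lay within 1 kb of a start. For other genes the share was 52.3%. In only 4 of the 27 did a kainic acid list have an overlapping peak, and in 1 case at least 2 lists had one. At Epha7, the outer start of Sema6b, Plxnc1 and Efna2 the saline peak touched the promoter (fold 5.64, 6.07, 4.11 and 3.82) where no kainic acid list had a peak. The promoter of Unc5b was touched by a saline peak (4.04) and by a peak of kainic acid replicate 2 (2.62).

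Other genes of the guidance pathway, chosen by their known roles, had more peaks for their length than the ligands and receptors. Of 20 other cues and coreceptors, 16 had a region, where their length classes gave 12.8, and the peak ratio was 1.34 ± 0.0286 (SD, n = 3 lists). The 2 with the most regions were the adhesion molecules Dscam and Dscaml1, with 19 each. Of 38 cytoplasmic effectors, 35 had a region, where their classes gave 25.9, and the ratio was 1.41 ± 0.0636. Mical2, an actin-oxidizing enzyme, and Trio, a guanine nucleotide exchange factor, had 16 each, against class means of 2.40 and 6.91. Both ratios lay above the 1.04 ± 0.0771 of the 66 members by more than the spread between lists. Because these genes were picked with earlier results of the data known, this gap is a description only. No other threshold was tried for them, and none was left out in turn.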

How the data were processed

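Fos ChIP-seq peak lists of 3 saline and 3 kainic acid libraries of mouse hippocampus were used, 1 list per library, none pooled. No list of the input library was used here. The submitters' processing notes name Trim Galore 0.6.4, Bowtie2 2.3.4.3, MACS2 and deepTools 3.5.0, with no role, and the build mm10. The peak names in the deposited files carry a mapping quality of 30. The cutoff and the control are not given in the sources used here. The authors give each peak a fold, a linear ratio over background in its library. The deposited −log10 p and −log10 q, and the score (10 times −log10 q, rounded down, in the deposited files), likewise belong to 1 library. None was compared in size across lists. The lowest −log10 q in the long deposited lists was 1.35 to 1.38, and an uncalled site is not an unbound one.

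Members and gene lists were chosen with earlier results of these data known. A peak or region was near a gene if it touched the span (RefSeq, GRCm38.p6) extended by 10 kb. Expected numbers are means over all non-members of the same length class (0.5 log2 units, with the longest and shortest genes pooled to at least 20 genes). Groups were compared by a two-sided exact permutation test over 20 assignments (scipy 1.17.1, Python 3.11.15). Labels do not say that replicates are separate animals, so p-values may measure technical spread. Counting and merging were tested on simulated data. The genes named were fixed by rule: for each family the member with most regions and those with none, the 10 with most regions, the 8 with the strongest region in all 3 lists, those with a saline peak, Nrp1, Nrp2 and Dcc. Further members were named after their values were seen. Alternatives covered −log10 q, list length, reach, libraries, merging and length classes.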

Additional observations from a re-analysis of the deposited data

How the results depend on the processing

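Counts depend on list length and threshold, and no read depth is known. The number of regions near members, 231, became 146 at −log10 q from 5 up and 51 from 10 up, 105 with equal numbers of kainic acid peaks, 95 for regions in all 3 lists, 657 for regions in any list, and 100 to 203 with one kainic acid list left out. From −log10 q 10 up, 26 of the 66 members had a region, against 20.5% of all protein-coding genes. For 13 of the 66 the groups did not overlap, against 9.62% of all genes. Neither comparison takes account of the longer spans of members. With the replicate block, which asks for more kainic acid than saline peaks in each same-numbered pair, the count of 30 became 33, though nothing in the labels ties equal numbers to the same animal or day. Leaving out 1 library gave 30 to 39. The 39 came without kainic acid replicate 1, where the share over all genes also rose, from 21.6% to 36.3%.

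The ratio for all members, 1.04, became 0.958 from −log10 q 5 up, 0.839 from 10 up, 0.952 with equal numbers of peaks, and 0.935 without Slit3. In the same order of the first 2 settings it was 1.19 and 1.01 for plexins and 1.17 and 0.925 for Eph receptors. From −log10 q 10 up it was 0.804 for neuropilins, 0.514 for Robos and 0.298 for the netrin receptors. With equal numbers of peaks it was 1.17 for neuropilins and 1.14 for Eph receptors. With a reach of 50 kb it was 1.61 for ephrins and 1.19 for Eph receptors, which had 1.49 with classes of 0.25 log2 units. Robos had 0.620 per kb of window. Settings chosen after seeing the data left out 1 gene: Slits had 1.06 without Slit3, Eph receptors 1.05 without Epha6, plexins 1.04 without Plxna4, semaphorins 0.597 without Sema5a, netrin receptors 0.577 without Dcc, Robos 0.631 without Robo2, netrins 1.04 without Ntn1 and ephrins 1.32 without Efna5. The cause was not tested. Ratios that lay over 1 SD from 1 turned to its other side in 5 cases: neuropilins and Eph receptors from −log10 q 10 up, ephrins with a reach of 50 kb or without Efna5, and netrins without Ntn1. Of all 200 alternative ratios, 18 crossed 1. Of 811 alternative values, 557 stayed within 1 SD or 1.5-fold. Of 586 region counts at the 53 named genes, 155 went down by that much and 60 went up.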

Other observations

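The symbols of 3 guidance genes on the X chromosome, Efnb1, Plxna3 and Plxnb3, fell outside the choice of chromosomes 1 to 19. No peak of any of the 6 lists lay within 10 kb of these genes, whose spans run from 13.0 to 16.4 kb. Among members under 100 kb, 16 of 34 had no region and 18 (52.9%) had one. Of all protein-coding genes under 100 kb on chromosomes 1 to 19, 36.5% had a region, so most short genes had none. Few peaks of any kind lay off chromosomes 1 to 19. These chromosomes held 14890 of 15009, 62620 of 63197 and 29425 of 29650 kainic acid peaks (replicates 1, 2 and 3). Whether short span or the chromosome goes with the lack of peaks at these X-linked genes was not tested.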
